A study of Neurospora crassa with 10 samples.

Results

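The genes described here are those whose transcripts were raised after 15 min of light and were still raised after 60 and 120 min. They were chosen from the measured values. Within a replicate, r(t) is log2((FPKM at time t + 1)/(dark FPKM + 1)), where FPKM is the number of sequenced fragments of a gene, corrected for how long the transcript is and how deeply the library was read. A member had r of 1 or more, which is a doubling, at 15, 60, and 120 min in both replicates, and lost less than 1 of r between 15 and 120 min in at least 1 replicate. Of the 9728 genes measured, 97 met these conditions. Of 14 loci left out by name, 8 were among the 97, which leaves 89 members. All 89 were among the 7688 genes taken as expressed, that is with a replicate mean over 1 FPKM at some time point.

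The samples were mycelia of *N. crassa* wild type (strain FGSC2489, 74-OR23-IVA) from liquid cultures in Bird's medium, kept 24 hr in darkness. White light was then given for periods of 15, 60, 120, and 240 min, and the dark cultures were harvested without it. Each of the 5 time points had 2 independent cultures, so there were 10 samples. Messenger RNA of replicate 1 was purified on oligo-dT cellulose and that of replicate 2 with a magnetic kit, so the replicate number and the isolation method cannot be told apart. In bulk mycelium, fewer cells of a type and less RNA per cell cannot be told apart.

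The 240 min samples stood apart from the rest before any member was considered. At 240 min, 3451 expressed genes differed at least 2-fold between the replicates, against 415 to 610 genes at the other time points. Whether both 240 min samples, replicate 2 in particular, are what their labels say was not tested, and every 240 min value given here carries that doubt. The files hold no read counts. The smallest steps between low FPKM values still give relative depth, which was 78.8 to 112% of that of dark replicate 1 in replicate 1 and 18.6 to 31.1% of it in replicate 2. The 240 min sample of replicate 2 was the shallowest at 18.6%, and the part of depth in the results was not tested. FPKM summed over all genes was between 559990 and 1009367 per sample. Among the members the loci NCU01903 (named pigment biosynthesis protein Ayg1) and NCU11461 had equal FPKM values in all 10 samples and count as 1 measurement.

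In *N. crassa* blue light is sensed by the White Collar Complex, a pair of zinc-finger transcription factors of which one binds a flavin and which binds the promoters of its target genes when lit. Many of its targets respond within minutes and then fade as the photoreceptor VIVID binds and restrains the complex. Genes whose transcripts stay high beyond the first response are known to include pigment, conidiation, and stress genes.

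Of the 89 members, 38 carried a functional or domain name in the tables used, 44 were named hypothetical protein, and 7 had no name. By lists of named genes, 9 members were redox enzymes, 8 were proteins of the cell surface, membrane, and conidiation, 6 were enzymes of small-molecule metabolism, and 9 had roles in regulation, DNA, RNA, and traffic. The other 57 were in no list.

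Members covered a wide range of dark levels. Mean dark FPKM ran between 0.390 and 916, with a median of 15.9 and quartiles of 6.05 and 38.6, and 12 members were above 100. Over all expressed genes the median dark FPKM was 9.14. The 3 members nearest the threshold inside it were *ecd-2* (lowest r 1.0003), NCU06682 (1.001), and NCU01124, which kept within the limit on fading by 0.0054. Nearest outside were NCU04416 (lowest r 0.9992), *trm-17* (0.9938), and NCU11540 (0.9936).

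The typical member was at its highest at 60 min. The median r of the members was 1.42 at 15 min, 2.42 at 60 min, and 1.92 at 120 min in replicate 1. In replicate 2 the same medians were 1.49, then 2.47, then 1.79. These values chose the members and are given as a description. Among expressed genes, the share with r of 1 or more in both replicates was 2.98% after 15 min, 7.74% after 60 min, and 6.1% after 120 min, against all 89 members by the rule. The median r of all expressed genes stayed between -0.09 and -0.04 at these times. At 60 min the members held 3.61% of the summed FPKM in replicate 1 and 3.34% in replicate 2, against 0.918% and 0.703% in the dark.

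**Figure D1:**
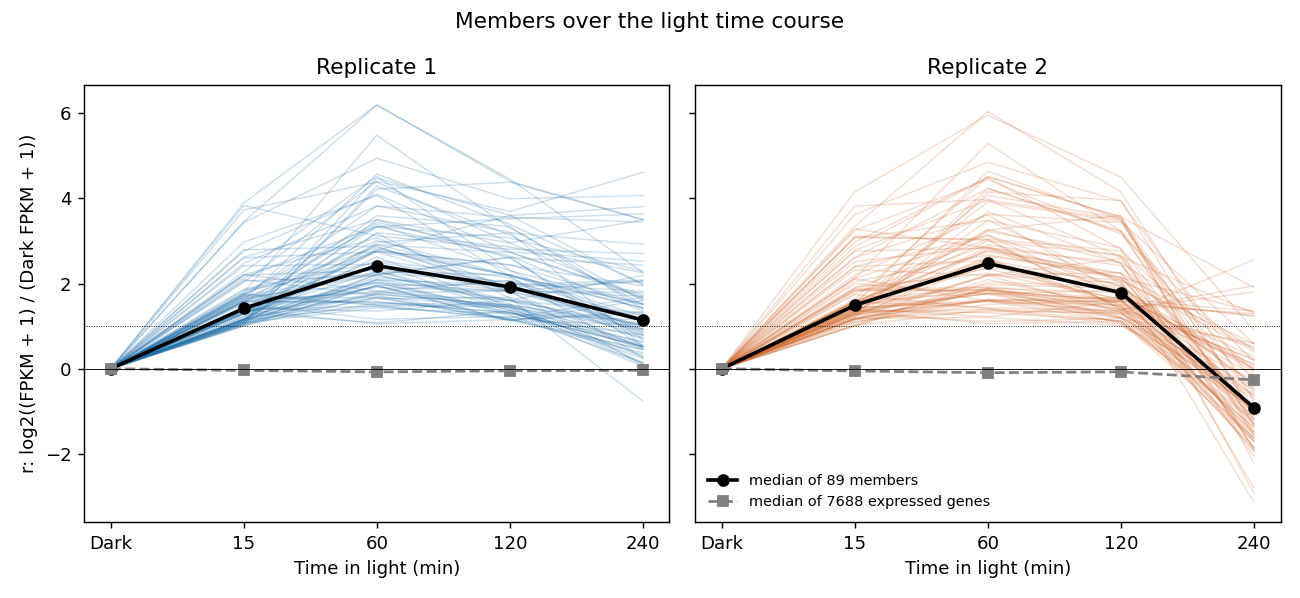
r of each of the 89 members (thin lines, log2) over the light time course in replicate 1 (left) and replicate 2 (right), with the median of the members (black) and of the 7688 expressed genes (grey, dashed). The medians of the members are 2.42 and 2.47 at 60 min, and at 240 min they are 1.14 in replicate 1 and -0.92 in replicate 2.

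Most members followed 1 shape. Between 15 and 60 min, r went up in both replicates for 74 members and down in both for 8, against 46.0% of expressed genes that went down in both. Between 60 and 120 min it went down in both for 73 and up in both for 7. Of expressed genes, 37.6% went down in both over that step. These values chose the members, so the contrast is a description. Among the light samples of all 4 times, 60 members had their highest FPKM at 60 min in both replicates, 7 at 15 min, and 2 at 120 min. Among 15, 60, and 120 min alone these numbers were 63, 7, and 5.

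The 7 members highest at 15 min in both replicates were *mus-18*, NCU04144, *tre-2*, NCU08727, *cat-2*, NCU01911, and NCU02819. They include a DNA repair enzyme, a sterol O-acyltransferase, a trehalase, and a catalase-peroxidase, which are described with their role groups. The 5 members highest at 120 min of the 3 times in both replicates were NCU01063, NCU04538, NCU05524, NCU07073, and NCU02122. The steepest climbs between 15 and 60 min, as the mean of the replicates, were those of NCU06597 (3.43 in r), NCU05652 (3.23), NCU07345 (3.08), NCU07337 (3.03), and NCU04823 (2.92). These shapes were chosen after their values were seen.

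The redox enzymes had the highest median at 60 min of the 4 named groups, 3.07 in replicate 1 and 3.04 in replicate 2. Of the 9, 8 were highest at 60 min in both replicates among 15, 60, and 120 min. NCU11395 is named S-(hydroxymethyl)glutathione dehydrogenase, an enzyme that oxidizes the adduct of formaldehyde and glutathione. It had the highest mean r of all members over 15, 60, and 120 min, 4.85. Its values in replicate 1 were 10.3 FPKM in the dark and, in the light, 168 (15 min), 832 (60 min), 239 (120 min), and 128 (240 min). In replicate 2 they were 7.49 FPKM in the dark and, in the light, 150.4 (15 min), 527 (60 min), 191 (120 min), and 14.9 (240 min). The replicates ran together until 120 min, and at 240 min both stood above their dark values, replicate 1 by 3.51 and replicate 2 by 0.91 in r.

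NCU04823, an NADP-dependent alcohol dehydrogenase, had 627 and 615 FPKM at 60 min, against 25.4 and 25.8 FPKM in the dark (replicate 1 is given first throughout). NCU01089, a flavin-containing amine oxidase, had 68.5 and 34.4 FPKM at 60 min, against 3.15 and 1.89 FPKM in the dark. NCU09534 is named peroxiredoxin HYR1, which in yeast is a thiol peroxidase that passes the hydrogen peroxide signal to a transcription factor. Replicate 1 had 64.1 FPKM in the dark and, in the light, 286 (15 min), 659.6 (60 min), 546 (120 min), and 317 (240 min). Replicate 2 had 69.7 FPKM in the dark and, in the light, 261 (15 min), 581 (60 min), 482 (120 min), and 67.3 (240 min), so that at 240 min it was at its dark level. The catalase-peroxidase gene *cat-2*, which encodes an enzyme that breaks down hydrogen peroxide, was less steep, with 38.9 and 24.5 FPKM at 15 min, against 11.0 and 6.63 FPKM in the dark.

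The other 4 redox members started from higher or middling dark levels. The short-chain dehydrogenase NCU01107 had 619 and 632 FPKM at 60 min, against 99.4 and 113 FPKM in the dark. The NADH-cytochrome b5 reductase NCU03112, which passes electrons from NADH to a membrane heme protein, had 752 and 492 FPKM at 60 min, against 162 and 133 FPKM in the dark. NCU09041 is an L-xylulose reductase, an enzyme of pentose catabolism, and had 1213 and 703 FPKM at 60 min, against 285 and 205 FPKM in the dark. NCU00360, an NAD-dependent epimerase or dehydratase, had 155 and 162 FPKM at 60 min, against 17.5 and 17.6 FPKM in the dark. At 240 min NCU03112 and NCU09041 were above the dark in both replicates by 0.15 to 0.52 in r.

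Among the 8 genes of the cell surface, membrane, and conidiation, medians of r at 60 min were 2.51 in replicate 1 and 2.21 in replicate 2. *con-8* was found as a gene expressed during conidiation. Its level in replicate 1 was 33.8 FPKM in the dark and, in the light, 192 (15 min), 492 (60 min), 408 (120 min), and 378 (240 min). In replicate 2 it was 42.7 FPKM in the dark and, in the light, 299 (15 min), 680.5 (60 min), 493 (120 min), and 16.6 (240 min). All light samples through 120 min were well above both dark samples, and at 240 min only replicate 1 was. *eas* encodes the hydrophobin that coats conidia and makes them hard to wet. It changed less, with 232 and 243 FPKM at 60 min, against 71.4 and 45.7 FPKM in the dark, and at 240 min it had 87.0 and 69.2 FPKM.

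*ncw-6* encodes a non-anchored cell wall protein. It had 139 and 198 FPKM at 60 min, against 11.4 and 16.8 FPKM in the dark, and at 240 min 139 and 6.78 FPKM. NCU10852 is named exochitinase, a class of enzyme that trims chitin, and had 108 and 125 FPKM at 60 min, against 21.95 and 31.0 FPKM in the dark.

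4 members belong to membrane domains or are small membrane proteolipids. NCU04639 is named for Nce102, in yeast a sensor of sphingolipids in the eisosome, a furrow of the plasma membrane. Its level in replicate 1 was 117 FPKM in the dark and, in the light, 398 (15 min), 854 (60 min), 445 (120 min), and 486 (240 min). In replicate 2 it was 89.2 FPKM in the dark and, in the light, 390.3 (15 min), 794 (60 min), 378 (120 min), and 9.22 (240 min). The replicates ran close together through 120 min, and at 240 min they lay on opposite sides of the dark, with r of 2.04 in replicate 1 and -3.14 in replicate 2. NCU07495 is named for LSP1, a core protein of the yeast eisosome, and had 117 and 76.7 FPKM at 60 min, against 34.1 and 19.4 FPKM in the dark.

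*pmp-1* and NCU06682 are both named plasma membrane proteolipid 3, a small hydrophobic protein that in yeast helps keep the membrane potential. *pmp-1* had the highest dark FPKM of the members. It had 2574 and 3127 FPKM at 60 min, against 823 and 1009 FPKM in the dark, and 1425 and 357 FPKM at 240 min. NCU06682 had 1047 and 1189 FPKM at 60 min, against 153 and 291 FPKM in the dark, and 438 and 87.9 FPKM at 240 min. The eisosome and proteolipid list holds these 4 genes only, and all 4 were above the dark at 240 min in replicate 1 and below it in replicate 2. The same held for 64 of the 89 members and 31.8% of expressed genes.

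The 6 metabolic enzymes had median r at 60 min of 2.24 in replicate 1 and 2.32 in replicate 2. NCU01348 is an agmatinase, which releases urea from agmatine to form the polyamine putrescine. Its level in replicate 1 was 38.0 FPKM in the dark and, in the light, 81.2 (15 min), 442 (60 min), 235 (120 min), and 62.4 (240 min). In replicate 2 it was 26.8 FPKM in the dark and, in the light, 66.8 (15 min), 358 (60 min), 153 (120 min), and 6.71 (240 min). In both replicates it was much higher at 60 min than at 15 min and came down after that. NCU05291, a polyamine acetyltransferase, an enzyme class that marks polyamines for breakdown or export, had 288 and 196 FPKM at 60 min, against 48.6 and 25.2 FPKM in the dark.

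NCU02322 is a mannose-6-phosphate isomerase, which links fructose 6-phosphate to the mannose used for glycoproteins and cell wall. It had 131 and 128 FPKM at 60 min, against 18.5 and 17.3 FPKM in the dark. *ad-5*, whose enzyme performs the last steps of purine nucleotide (IMP) synthesis, had 535 and 390.3 FPKM at 60 min, against 139 and 109 FPKM in the dark. *tre-2* encodes a trehalase, which splits the storage sugar trehalose into glucose. It had 193 and 117 FPKM at 15 min, against 73.0 and 44.8 FPKM in the dark, and 153 and 94.3 FPKM at 60 min. NCU04144, a sterol O-acyltransferase that makes sterol esters for storage, had 52.4 and 63.0 FPKM at 15 min, against 11.5 and 13.8 FPKM in the dark, and 40.3 and 43.4 FPKM at 60 min. All 6 were above the dark at 240 min in replicate 1 and below it in replicate 2, as were 64 of the 89 members and 31.8% of expressed genes.

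The 9 members with roles in regulation, DNA, RNA, and traffic had the lowest medians of the 4 named groups at 60 min, 2.04 in replicate 1 and 1.86 in replicate 2. *mus-18* encodes a UV damage endonuclease, which nicks DNA beside UV photoproducts. Replicate 1 had 1.52 FPKM in the dark and, in the light, 35.0 (15 min), 20.9 (60 min), 16.6 (120 min), and 15.4 (240 min). Replicate 2 had 1.13 FPKM in the dark and, in the light, 19.7 (15 min), 14.2 (60 min), 11.0 (120 min), and 1.93 (240 min). It was highest at 15 min in both replicates, the steepest early response of this group, and came down gradually through 120 min. *rpn-4* is named for the C2H2 zinc finger factor that in yeast activates the proteasome genes. It had 111 and 38.2 FPKM at 15 min, against 43.9 and 16.5 FPKM in the dark, and 45.8 and 3.90 FPKM at 240 min.

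NCU03682, with an endonuclease, exonuclease, and phosphatase domain, had 58.7 and 83.9 FPKM at 60 min, against 3.94 and 4.61 FPKM in the dark. *div-23* had 169 and 109.9 FPKM at 60 min, against 21.6 and 12.8 FPKM in the dark. NCU09513, named GTP-binding protein 1, had 184 and 92.3 FPKM at 60 min, against 33.6 and 14.8 FPKM in the dark. These 3 had the highest r at 60 min in the group beside *mus-18*.

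NCU07082, an aspartyl-tRNA synthetase that charges tRNA with aspartate, had 75.8 and 43.5 FPKM at 60 min, against 21.8 and 11.3 FPKM in the dark. *vma-11*, a proteolipid of the proton pump of the vacuole, had 211 and 230.0 FPKM at 60 min, against 50.4 and 87.0 FPKM in the dark. NCU01911 is named for Sec2p, in yeast the exchange factor that activates a Rab GTPase for exocytosis, and had 39.8 and 23.3 FPKM at 15 min, against 13.2 and 8.40 FPKM in the dark. NCU02122 was among the 7 members that were higher at 120 min than at 60 min in both replicates, with 169 and 178 FPKM at 120 min and 142 and 138 FPKM at 60 min.

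**Figure D2:**
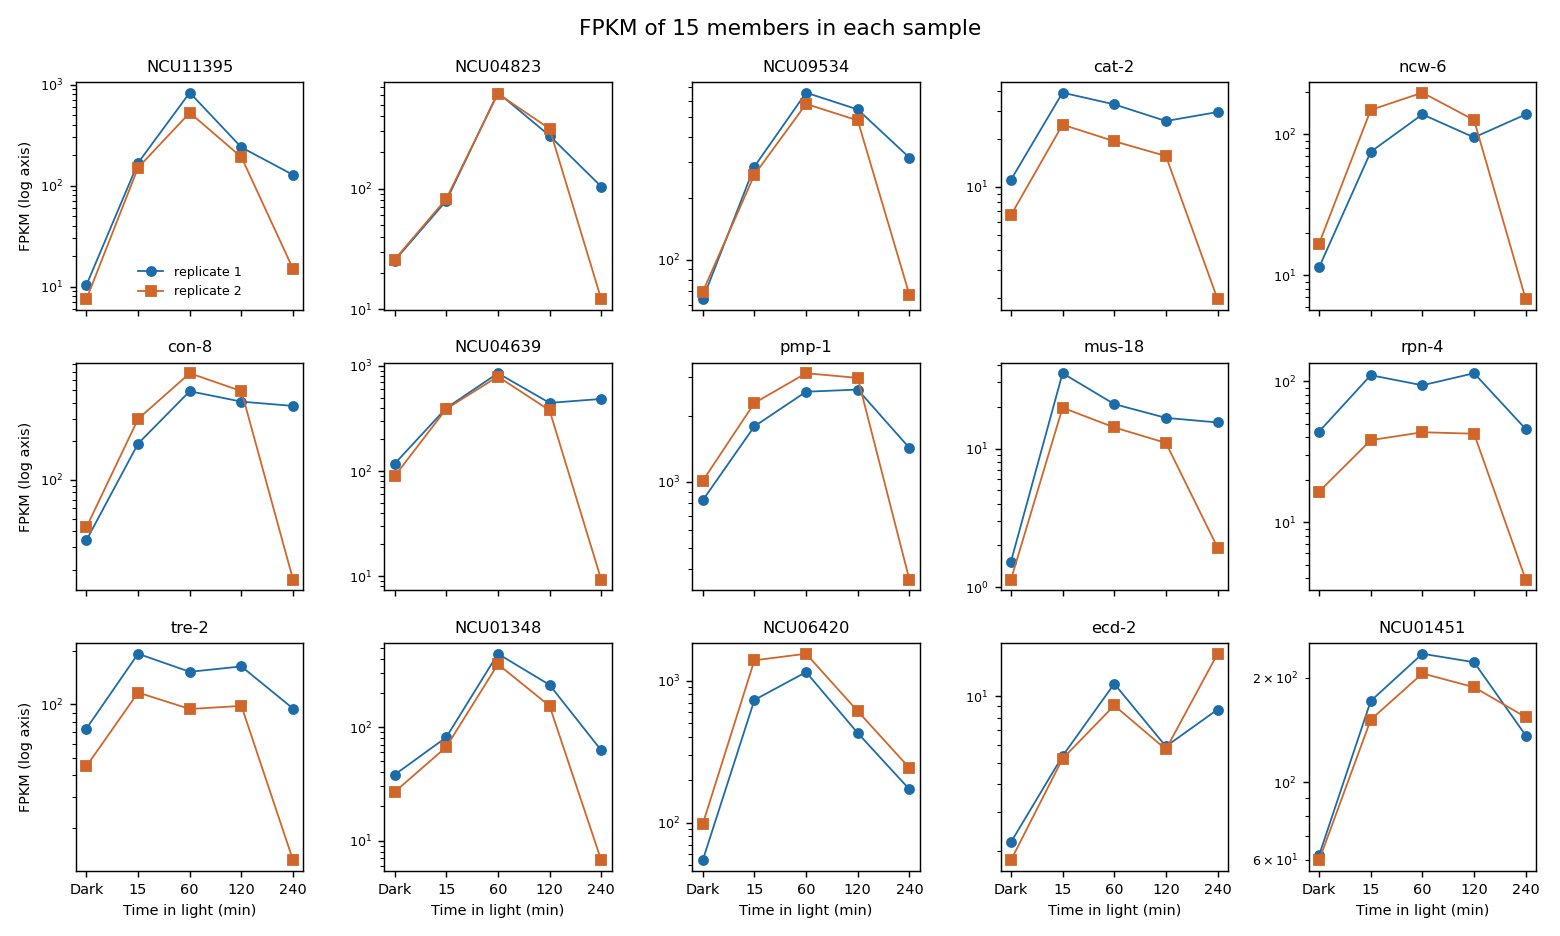
FPKM (log axis) of 15 members in the dark and after 15, 60, 120, and 240 min of light, with replicate 1 as circles and replicate 2 as squares. The replicates run side by side through 120 min, and at 240 min replicate 2 drops below its dark value for most of the genes shown, NCU04639 to 9.22 FPKM, while *ecd-2*, NCU06420, NCU01451, NCU11395, and *mus-18* stay above it in both.

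Outside the role lists were the largest responses after NCU11395. NCU09049, a hypothetical protein, had a mean r of 4.61 over 15, 60, and 120 min. It had 349 and 278 FPKM at 60 min, against 3.78 and 3.24 FPKM in the dark, and 51.3 and 42.1 FPKM at 15 min. NCU01060, with a mean of 4.13, had 1249 and 1369.7 FPKM at 60 min, against 39.7 and 46.6 FPKM in the dark, and 681 and 36.7 FPKM at 240 min. Its 240 min values stood on either side of the dark level.

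NCU06420, with a mean of 3.58, had in replicate 1 54.2 FPKM in the dark and, in the light, 731 (15 min), 1149.7 (60 min), 427 (120 min), and 172 (240 min). Replicate 2 had 97.5 FPKM in the dark and, in the light, 1392 (15 min), 1548 (60 min), 609 (120 min), and 242 (240 min). It stayed above the dark in all light samples. NCU06597, with a mean of 3.54, had a sharp maximum at 60 min, with 333 and 396 FPKM at 15 min, 4316 and 3553 FPKM at 60 min, and 954 and 849.9 FPKM at 120 min. After *pmp-1*, the highest dark levels were those of NCU05395, with 4811 and 5064 FPKM at 60 min, against 989.6 and 737 FPKM in the dark, NCU07962, with 2622 and 2726 FPKM at 60 min, against 371 and 404 FPKM in the dark, the L-xylulose reductase gene NCU09041, and NCU08390, with 881 and 926 FPKM at 60 min, against 199 and 249 FPKM in the dark.

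The members with a late maximum behaved otherwise. NCU01063, a hypothetical protein, had in replicate 1 114 FPKM in the dark and, in the light, 256 (15 min), 794 (60 min), 1398 (120 min), and 1617 (240 min). Replicate 2 had 111 FPKM in the dark and, in the light, 296 (15 min), 1071 (60 min), 1368 (120 min), and 23.3 (240 min). It was still climbing between 60 and 120 min in both replicates, and at 240 min the replicates gave its highest and its lowest value of the series. NCU04538, a hypothetical protein, had 32.0 and 22.1 FPKM at 120 min, against 4.41 and 2.84 FPKM in the dark. NCU07073, a hypothetical protein, had 10.9 and 8.11 FPKM at 120 min, against 2.36 and 1.85 FPKM in the dark.

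Other hypothetical proteins had steep responses as well. NCU05652 had 142 and 202 FPKM at 60 min, against 5.43 and 7.15 FPKM in the dark, and 12.9 and 22.6 FPKM at 15 min. NCU07345 had 269 and 302 FPKM at 60 min, against 12.8 and 15.1 FPKM in the dark, and 27.7 and 39.2 FPKM at 15 min. NCU07337 was close to level between 60 and 120 min, with 73.3 and 102 FPKM and then 82.1 and 88.7 FPKM, against 2.99 and 4.803 FPKM in the dark. Each of these 3 was a modest response at 15 min and a large one at 60 min in both replicates. NCU03506 had 51.2 and 82.1 FPKM at 60 min, against 2.05 and 2.82 FPKM in the dark, NCU07921 had 239.9 and 264 FPKM at 60 min, against 25.3 and 13.1 FPKM in the dark, and NCU00250 had 152 and 168 FPKM at 60 min, against 14.1 and 12.7 FPKM in the dark. In replicate 1, NCU07337 and NCU00250 were higher at 120 min than at 60 min.

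NCU07441 shows a gene whose replicates differed from the start, with 489 and 278 FPKM at 60 min, against 61.7 and 15.6 FPKM in the dark. NCU09630 had 24.2 and 21.7 FPKM at 60 min, against 0.780 and 0 FPKM in the dark, and was the member with the lowest mean dark level.

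Some named genes were in no role list. *sah-1* encodes a C2H2 zinc finger transcription factor and had 53.1 and 42.5 FPKM at 60 min, against 10.9 and 10.63 FPKM in the dark. NCU01647, named for the Rab GTPase ypt4, differed between the dark samples, and had 50.4 and 55.6 FPKM at 60 min, against 1.43 and 11.4 FPKM in the dark. The Ayg1 name of NCU01903 is that of an enzyme of the melanin pathway in *Aspergillus fumigatus*, and the gene had 47.8 and 76.7 FPKM at 60 min, against 15.4 and 20.6 FPKM in the dark.

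**Figure D3:**
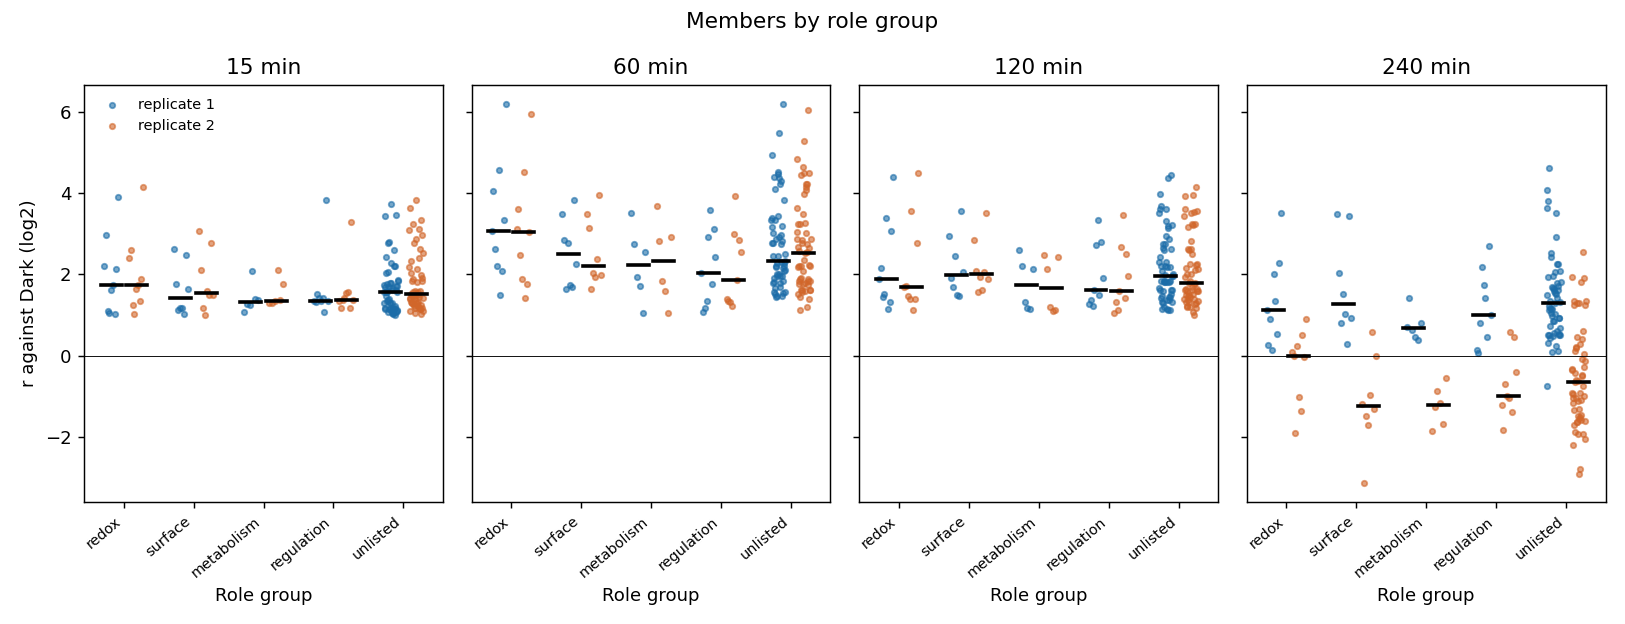
r against the dark (log2) of every member by role group at each light time, replicate 1 left of replicate 2 within a group, with black bars for medians. The redox group has the highest medians of the 4 named groups at 60 min, 3.07 and 3.04, and at 240 min the replicates of every group separate.

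At 240 min, the only light time that the rule did not use, the median of the members was above the dark in replicate 1 and below it in replicate 2. The dark values that chose the members also enter r at 240 min, which favours r above 0 in the members. The shares below are therefore a description. In replicate 1, 88 of 89 members were above the dark (background of all expressed genes 47.2%), 51 had r of 1 or more (background 8.13%), and 0 had r of -1 or less (background 7.4%). In replicate 2, 25 members were above the dark (background 35.7%), 10 had r of 1 or more (background 6.23%), and 40 had r of -1 or less (background 17.3%). In both replicates at once, 0 members had r of -1 or less (background 1.26%). The median r of replicate 1 was 1.14 and that of replicate 2 was -0.92. All expressed genes had medians of -0.04 and -0.26, and with samples scaled to a common median the members stood at 1.13 and -0.64.

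In 64 members, r was above 0 in replicate 1 and below 0 in replicate 2, a pattern of 31.8% of expressed genes, and 1 member, NCU00354, had the reverse (background 20.2%). In 26 members r was at least 1 in replicate 1 and -1 or less in replicate 2 (background 2.77%). Replicate 1 was at least 2-fold above replicate 2 at 240 min for 67 members (background 32.8%) and replicate 2 above replicate 1 for 5 (background 12.1%). At the other time points 3 to 8 members differed 2-fold, as did 415 to 610 of the 7688 expressed genes. Across the 89 members, which share their libraries, Pearson's coefficient between the responses in the replicates was 0.85 at 15 min and 0.93 at 60 and 120 min. At 240 min it was -0.202. Over all expressed genes the coefficients were 0.87, 0.92, 0.92, and -0.100 in the order of time, so that the positive coefficient was absent at 240 min over all expressed genes too. The values at 15, 60, and 120 min chose the members.

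The same separation was present in other light-induced genes. The 223 late genes, with r of 1 or more at 60 and 120 min but below 1 at 15 min in both replicates, had medians at 240 min of 1.43 in replicate 1 and -0.76 in replicate 2. The 13 genes that met the 3 rises but had faded by 1 or more between 15 and 120 min in both replicates had medians of 2.22 and 0.62, so that both were above the dark. The log2 gap between the replicates at 240 min had a median of 2.35 in the members, 2.35 in the late genes, and 1.799 in the faded genes, against 0.47 over all expressed genes. These sets were chosen by their values and the differences among them were not tested.

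**Figure D4:**
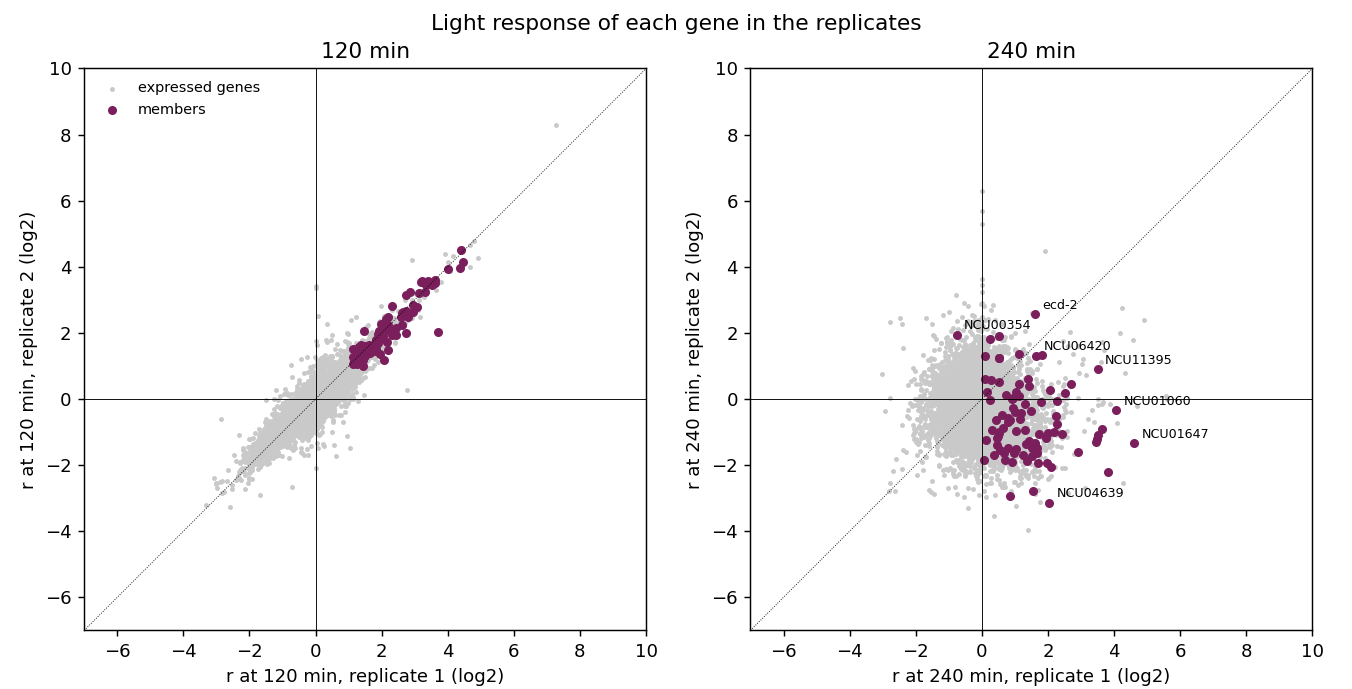
r in replicate 2 against r in replicate 1 (log2) at 120 min (left) and 240 min (right) for expressed genes (grey) and the 89 members (purple), with equality dotted. At 120 min the members lie along equality, and at 240 min 64 of them lie to the right of 0 and below it.

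Between 120 and 240 min, r went down in both replicates for 74 members and in opposite directions for 14. The median change was -0.80 in replicate 1 and -2.65 in replicate 2, against 0.00 and -0.15 over all expressed genes, of which 30.0% went down in both. Only *ecd-2* went up in both replicates. The 120 min values chose the members, which favours a later decrease, and nothing is read from this contrast with the expressed genes.

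The difference between 240 min and the dark was tested by limma across all expressed genes on the scale of log2(FPKM + 1). The dark samples were also part of the rule, which favours raised over lowered calls among the members. The member counts are therefore not independent of the rule, and nothing is read from their contrast with the background. At an adjusted p of 0.2 or less, 3 of 89 members were raised (background 0.325%) and 0 were lowered (background 1.05%). At an unadjusted p below 0.05, 8 members were raised (background 1.66%) and 0 lowered (background 5.46%), and at an adjusted p of 0.05 or less none was called in either direction (background 0.013% raised and 0.065% lowered). With the replicate number as a block, 15 members were raised (background 5.11%) and 0 lowered (background 15%) at 0.2, and 4 were raised (background 0.78%) and 0 lowered (background 3.33%) at 0.05. At an unadjusted p below 0.05 in that fit, 15 were raised (background 4.96%) and 0 lowered (background 14.9%).

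These counts depended on single samples. Without the 240 min sample of replicate 2, 59 members were raised (background 13.9%) and 0 lowered (background 11.8%). Without that of replicate 1, 10 were raised (background 8.71%) and 42 lowered (background 27.6%). In both cases the lone 240 min sample is assumed to vary like the other groups. Leaving out any 1 of the dark, 15, 60, or 120 min samples removed most or all raised calls, among the members and over all expressed genes alike. Each of these fits leaves 1 sample in a group, and the loss was not particular to the members.

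The 3 members called were *ecd-2*, NCU12116, and NCU01451. *ecd-2* had in replicate 1 2.18 FPKM in the dark and, in the light, 5.36 (15 min), 11.4 (60 min), 5.92 (120 min), and 8.70 (240 min). In replicate 2 it had 1.81 FPKM in the dark and, in the light, 5.21 (15 min), 9.08 (60 min), 5.74 (120 min), and 15.6 (240 min), so that its highest value in that replicate was at 240 min. The log2 difference between 240 min and the dark was 2.09 ± 0.34 (SE), with an adjusted p of 0.0587 from limma and 0.0152 with the block.

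NCU12116, a hypothetical protein, was scarce in the dark, with 4.32 and 2.74 FPKM at 240 min, against 0.508 and 0.479 FPKM in the dark. Its log2 difference was 1.58 ± 0.33 (SE, limma adjusted p = 0.109, and 0.0268 with the block). NCU01451, a hypothetical protein, had 136 and 154 FPKM at 240 min, against 61.7 and 59.7 FPKM in the dark. Its log2 difference was 1.24 ± 0.31 (SE, limma adjusted p = 0.155, and 0.0258 with the block). For all 3 genes both 240 min samples were above both dark samples. With NCU06420, which had 172 and 242 FPKM at 240 min, against 54.2 and 97.5 FPKM in the dark (limma adjusted p = 0.249, and 0.0209 with the block), they were the 4 members with r of 1 or more at 240 min in both replicates (background 0.494%).

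By the mean of the replicates, r at 240 min was highest for NCU11395 (2.21), *ecd-2* (2.09), NCU01060 (1.87), NCU01647 (1.64), and *mus-18* (1.58). In each of these but *ecd-2*, replicate 1 was the higher. NCU01647, for example, had 58.6 and 3.91 FPKM at 240 min, against 1.43 and 11.4 FPKM in the dark, and its log2 difference was 1.64 ± 1.16 (SE, limma adjusted p = 0.672). NCU11395 had a log2 difference of 2.21 ± 0.81 (SE, limma adjusted p = 0.318, and 0.105 with the block). *mus-18* had 1.58 ± 0.72 (SE, limma adjusted p = 0.445, and 0.119 with the block). Both passed 0.2 with the block and not without it.

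The lowest means at 240 min were those of NCU05844 (-1.04), *rpn-4* (-0.89), *tre-2* (-0.66), NCU07061 (-0.63), and the agmatinase gene NCU01348 (-0.57). None was called, with limma adjusted p of 0.770 or more. In each of the 5, r at 240 min was above 0 in replicate 1 and at or below -1.69 in replicate 2. NCU05844, a hypothetical protein, had 20.9 and 1.32 FPKM at 240 min, against 11.1 and 16.7 FPKM in the dark.

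In 24 members r at 240 min was above 0 in both replicates, against 15.2% of expressed genes. They include *eas*, *sah-1*, *mus-18*, NCU11395, NCU00360, NCU03112, and NCU09041. In 10 members replicate 2 was above replicate 1 at 240 min, which are NCU00354, NCU01451, NCU01903 with NCU11461, NCU04914, NCU06420, NCU07540, *ecd-2*, NCU08727, and NCU09630. NCU00354 had in replicate 1 2.73 FPKM in the dark and, in the light, 8.14 (15 min), 32.7 (60 min), 10.7 (120 min), and 1.199 (240 min). In replicate 2 it had 8.90 FPKM in the dark and, in the light, 82.8 (15 min), 80.8 (60 min), 24.9 (120 min), and 37.2 (240 min). It was higher in replicate 2 in every sample, and at 240 min the gap was the widest of the 10.

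In every role group the median r at 240 min was higher in replicate 1. Medians there were 1.13 for redox enzymes, 1.27 for the cell surface group, 0.67 for metabolism, and 1.00 for regulation. In replicate 2 they were -0.02, -1.25, -1.22, and -1.01 in that order of groups. None of the 32 members in the role lists was called by limma at 240 min without the block. The differences between role groups were not tested.

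Gene order was taken from the RefSeq table of assembly NC12, which placed 85 members among 9218 genes of the files. It was not used by the rule. Of the 85, 14 (16.5%) had another member as the next gene on either side, against 170 (1.84%) of all placed genes with a member beside them. They formed 7 pairs, which are NCU01107 and NCU01108, NCU01124 and NCU01127, NCU05524 and NCU05525, NCU07073 and NCU07074, NCU07540 and NCU07541, NCU09115 and NCU10852, and NCU09534 and NCU09535. The spans of 0 of the 7 pairs overlapped in that table. Strand was not used here.

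Pairs did not always move together at 240 min. In replicate 2, NCU07540 had r of 1.803 and NCU07541, next to it, had -0.08, while in replicate 1 they had 0.24 and 1.79. NCU09534 and NCU09535 had r at 60 min of 3.34 and 2.27 in replicate 1 and of 3.04 and 2.24 in replicate 2.

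Members also stood next to genes outside the set. Of the 85, 9 (10.59%) were beside such a gene with r of 1 or more at 15 min in both replicates, against 261 (2.86%) of 9133 genes that were not members. Among these neighbours were *al-2*, the phytoene synthase and lycopene cyclase gene of carotenoid synthesis, beside *ncw-6*, and the catalase gene *cat-3* beside NCU00354. The calcium and proton exchanger gene *cax* was beside NCU07074, and *fl*, which encodes a regulator of conidiation, beside NCU08727. The neighbour *fl* had r of 2.15 and 1.88 at 15 min and of 0.65 and 0.50 at 60 min, while its neighbour among the members held 1.83 in replicate 1 and 1.75 in replicate 2.

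Relatives of the members in the same families were tested by limma at 60 min, at an adjusted p of 0.2 (background 2.68% raised and 3.55% lowered). Of the 5 other genes in the conidiation list, 4 were tested and 2 were raised, *con-6* and *con-10*, which are 2 of the loci left out by name. *con-13*, which marks conidiation, was at 0.359 FPKM or less in all samples. Of 20 other short-chain dehydrogenases, 15 were tested, 2 were raised (NCU01861, also left out by name, and NCU07434), and 1 was lowered (NCU02480). Of 7 other peroxide and superoxide enzymes 2 were raised, *cat-3* and *sod-2*. *cat-1*, also left out by name, just missed the threshold (limma adjusted p = 0.214). It had 493 and 302 FPKM at 60 min, against 69.3 and 44.3 FPKM in the dark. Of 5 other polyamine enzymes 1 was lowered, *spe-2*, and of 12 heat shock proteins 1 was lowered, *hsp70-4*. The median log2 difference of the 12 heat shock genes at 60 min was -0.33. NCU07232, NCU09420, and *hsp70-3* were higher at 60 min in both replicates without being called. NCU07232 had 3058 and 2595 FPKM at 60 min, against 360 and 226 FPKM in the dark (limma adjusted p = 0.457). None was called among 8 tested alcohol dehydrogenases, 5 other non-anchored cell wall proteins, 3 tested trehalose enzymes, or 2 tested genes of the sexual stage. The fit shares 1 spread over all time points, 240 min included, so a gene left uncalled may still have changed at 60 min. Of the cell wall proteins, *ncw-5* had 935 and 1272 FPKM at 60 min, against 154 and 170 FPKM in the dark (limma adjusted p = 0.484). Of these 5 only *ncw-2* was lower, with 161 and 209 FPKM at 60 min, against 312 and 316 FPKM in the dark. At 240 min no gene of these lists outside the members was called in either direction.

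Summed FPKM of the marker lists was higher in replicate 1 than in replicate 2 at 240 min. Over the 7 conidiation genes, of which *con-8* and *eas* are members, it was 597 in replicate 1 and 139 in replicate 2 at 240 min, against 168 and 133 in the dark. The largest part at 240 min was *con-8* in replicate 1, at 378 FPKM, and *eas* in replicate 2, at 69.2 FPKM. Of the 7, 6 and 3 were above the dark, and the 6 include *con-13* at only 0.114 FPKM. The 3 sexual stage genes summed to 181 and 124 FPKM at 240 min, against 152 and 356 in the dark. Most of each sum was *ccg-4*, with 157 and 122 FPKM at 240 min. Above the dark were 3 genes in replicate 1 and 1 in replicate 2, and this 1 was *pre-2*. It was at 0.363 FPKM or less in all samples. The 12 heat shock genes summed to 4813 and 1195 FPKM at 240 min, against 2853 and 1774 in the dark. Most of the sum in replicate 1 came from NCU07232, with 2199 and 30.9 FPKM, and NCU09420, with 1316 and 8.54 FPKM at 240 min. The median r of the list was -0.50 in replicate 1 and -0.26 in replicate 2, and 4 and 5 of the 12 genes were above the dark, so that the typical heat shock gene did not follow the sum. The part of these lists in the separation of the members was not tested.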

How the data were processed

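RNA-seq was measured in 10 samples of mycelium, 2 cultures in the dark and 2 at each of 4 light times. The authors called bases with CASAVA 1.8.2, mapped the reads with TopHat 2.0.5, and computed FPKM per gene and sample with Cuffdiff, correcting for fragment bias and for multiply mapped reads. The deposited FPKM values were used unpooled and unfiltered for 9728 genes. The files hold no read counts, so relative depth was taken from the commonest ratio of values between samples in genes below 1 FPKM, within 0.015 on the log2 scale. Conditions came from the sample records.

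Members were found by the stated rule. The members and the gene lists were chosen with earlier results of these data known. Genes named are members in the role lists, the 5 highest in mean r, the 5 highest in dark FPKM, the 5 highest and 5 lowest in r at 240 min, those nearest the thresholds, and neighbouring members; others were named after their values were seen. Symbols and names came from the study's tables and RefSeq.

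limma 3.58.1 in R 4.3.3 was fitted to log2(FPKM + 1) of 7688 expressed genes with 1 mean per time point in all 10 samples, a shared spread, and a variance trend (5 residual degrees of freedom, prior 3.50). P-values were adjusted by Benjamini-Hochberg over 4 contrasts together, with a threshold of 0.2. The fit was tested on simulated data, whose noise was independent between samples and left out the spread between the 240 min samples. Replicate numbers mark the RNA isolation method and therefore pair the samples. Deviations of same-numbered samples correlated at 0.760 to 0.841 for pairs without 240 min and at 0.334 to 0.412 for pairs with it. Alternatives were the replicate block, other pseudocounts, filters, scalings, and thresholds, and leaving out each sample. Python 3.11.15 with pandas 2.3.3, numpy 2.4.6, and matplotlib 3.10.9 was used. Gene order came from RefSeq assembly NC12, which is not the assembly of the files. Its coordinates were used only to order the genes and to check whether the spans of neighbours overlap.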

Additional observations from a re-analysis of the deposited data

How the results depend on the processing

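The number of members depended on the cut-offs. It was 89 as reported, 52 with a pseudocount of 5 (all 52 among the 89), 138 with a least rise of 0.8 (all 89 among them), 50 with 1.2, 133 with a pseudocount of 0.1, and 100 with median scaling. It was 119 by replicate 1 alone and 126 by replicate 2 alone. With the replicate number as a block, which pairs the samples by RNA isolation, 15 members were raised at 240 min in place of 3, the 3 among them. Quantile normalization gave 5 raised members (83 raised over all expressed genes) and median scaling 7 (104 over all). A threshold of 0.05 gave 0 (1 over all). Leaving out 1 sample gave between 0 and 59 raised members and between 0 and 42 lowered members. Over all expressed genes the block called 393 raised and 1155 lowered genes in place of 25 and 81. The number of members beside a raised gene outside the set was 19 (22.4%, against 9.91% of genes that were not members) when the rise was taken at 60 min in place of 9 (10.59%, against 2.86%). Of the 12 genes given with a test at 240 min, 48 values under 4 alternatives kept their sign, and 5 passed the threshold that had not, in NCU11395 (with the block, median scaling, and quantile normalization) and *mus-18* (with the block and median scaling). The medians at 240 min kept their sign under all 3 alternatives tried. The cause of these differences was not tested. The search of promoters for motifs was not run, since promoter sequences were not used here. Depth limits the low values of replicate 2 most.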
